A study of Mus musculus with 4 samples.

Results

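Neutrophil-rule cells of day 4 skin wounds were the cells of the wounded mouse skin slide with at least 10 transcripts, of which at least 3 came from Cxcr2, Mmp9 and Itgam together and none from C1qa or Mrc1. They were chosen by their own transcripts of these genes. There were 14133 such cells among the 123433 cells with at least 10 transcripts in 3 wound sections. The series measured a custom panel of 328 genes in situ (Xenium, in which single transcripts are imaged in the tissue and given to outlined cells) on 4 slides of formalin-fixed skin and buccal mucosa. All skin came from TRE-Pitx1/Krt5-rtTA mice, in which doxycycline turns on the transcription factor Pitx1 under the Krt5 promoter, so mainly in keratinocytes of the epidermis and hair follicles. PITX1+ littermates ate doxycycline chow and Control littermates ate normal chow. The wounds were full-thickness punches in the back skin of males, taken on day 4. The wound slide carried 1 Control section and 2 PITX1+ sections, and its label names no animal. By the study's account 1 wound of each mouse went to this assay, cut at its midline, and the sections count as 1 Control and 2 PITX1+ wounds. The PITX1+ sections would then come from different mice, which neither the label nor the study states.

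Neutrophils are short-lived granulocytes that leave the blood within hours of an injury, following chemokines that bind Cxcr2 and Ccr1. They carry proteases and antimicrobial proteins in granules, release interleukin 1 and further chemokines, and form much of the cellular part of a fresh scab. Macrophages, which follow them, are marked in this panel by C1qa, a complement component, and by the mannose receptor Mrc1.

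The label of the slide does not give the condition of each section. The section with the lowest mean x position was taken as Control from the outlines of the wound images, and the other sections as PITX1+, the last of them by elimination. Keratinocyte-rule cells are cells with at least 5 transcripts of 7 keratins, and some neutrophil-rule cells met this rule too. Pitx1 itself was lowest in the Control section in keratinocyte-rule cells that are no neutrophil-rule cells. They held 57.9 Pitx1 transcripts per 1000000 panel transcripts (ppm) in the Control section (39 transcripts), 634 in PITX1+ section 1 (965 transcripts) and 311 in PITX1+ section 2 (502 transcripts). Neutrophil-rule cells held 7, 58 and 118 Pitx1 transcripts in the same order, or 127, 213 and 128 ppm. The sections held 1581272, 3286746 and 5368511 transcripts in their cells, and the median neutrophil-rule cell held 57, 61 and 72 transcripts against 58, 62 and 54 in the other cells. With 1 Control section the conditions were compared by values and 95% intervals, which cover counting error only, and by no test. Between 4 and 6 cell identifiers were shared by the wound slide with each of the other slides.

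The rule mixed cells with different content, so the label was checked against its parts. Cxcr2, a chemokine receptor of mature neutrophils, had at least 1 transcript in 51.5%, 42.8% and 50.8% of the neutrophil-rule cells of the Control section, PITX1+ section 1 and PITX1+ section 2. S100a8, a subunit of the antimicrobial calprotectin, was at 47791, 60382 and 50363 ppm in the cells with Cxcr2 and at 22831, 40895 and 30141 in those without. Trem1, a receptor that amplifies neutrophil activation, was at 13776, 9340 and 7923 ppm with Cxcr2 and at 5338, 4772 and 3544 without. Both genes were thus lower in the cells without Cxcr2 in 3 of 3 sections, and in both sets they were above the other cells of the wound, in which S100a8 was at 7987, 8382 and 14347.

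Cells that met the rule through 1 marker alone carried more macrophage or keratinocyte transcripts than those with all 3. The 139, 348 and 1167 cells with Itgam only had Ctss, a lysosomal protease of macrophages and dendritic cells, at 36892, 29118 and 43451 ppm, against 13170, 9506 and 11917 in the cells with all 3 markers. The 29, 284 and 754 cells with Mmp9 only had Krt5, the basal keratinocyte keratin, at 71817, 36443 and 26408 ppm, against 4714, 8887 and 10915 in the cells with all 3 markers. The few cells with Cxcr2 only (9, 10 and 40) had Krt5 at 13321, 38845 and 21001 ppm. Cells with all 3 markers made up 24.5%, 29.0% and 33.0% of the neutrophil-rule cells. Cells just inside and just outside the rule both held S100a8: with a marker sum of exactly 3, S100a8 was at 28668, 41963 and 33954 ppm, and with a sum of 2 it was at 28105, 30392 and 28980. The part of mixed outlines in these values was not tested.

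Summed over lists, the 16 neutrophil genes of the panel gave 23.9%, 22.6% and 20.5% of the transcripts of neutrophil-rule cells in the Control section, PITX1+ section 1 and PITX1+ section 2, and 7.38%, 6.46% and 8.62% of those of the other cells. The list holds the 3 genes of the rule, so this is a description of the choice and no result. The 13 macrophage genes gave 4.45%, 4.25% and 5.12% in neutrophil-rule cells, with C1qa and Mrc1 at 0 by the rule, and 3.96%, 4.33% and 5.06% in the other cells. They gave 14.7%, 16.5% and 14.5% in macrophage-rule cells (at least 3 transcripts of C1qa and Mrc1, and fewer than 3 of the neutrophil markers). Both rules used C1qa and Mrc1, so the gap to macrophage-rule cells is no result. In neutrophil-rule cells the 10 keratinocyte genes gave 6.75%, 6.98% and 5.91%, the 8 fibroblast genes 2.47%, 4.43% and 4.74%, and the 10 T and NK cell genes 0.37%, 0.33% and 0.33%. Fibroblast transcripts were thus a larger part of what was counted in these cells in both PITX1+ sections than in the Control section, and keratinocyte transcripts did not share this order. Of the neutrophil-rule cells, 11.0%, 17.6% and 17.6% also met the keratinocyte rule.

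Outlined area, which the rule did not use, was smaller in neutrophil-rule cells than in macrophage-rule cells in 3 of 3 sections. The median cell area was 71.0, 57.2 and 58.7 square micrometres in neutrophil-rule cells and 214, 139 and 79.7 in macrophage-rule cells. Median nuclear area was alike, at 21.2, 21.0 and 21.7 square micrometres against 18.8, 20.6 and 20.3. The area of an outline depends on how far the neighbours lie, and that dependence was not tested.

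Neutrophil-rule cells were high in Il1b, Il1rn, the receptors Ccr1 and Trem1 and a few chemokines, and lower than other cells in many more genes. Of 325 genes with at least 20 transcripts in these cells, 20 (6.15%) were at least 2-fold higher than in the other cells of the same section in 3 of 3 sections, and 77 (23.7%) were at least 2-fold lower. The 20 were the rule genes Cxcr2, Mmp9 and Itgam, with S100a8, Il1b, Il1rn, Trem1, Hdc, Ccr1, Ccl3, Ccl4, Cxcl3, Tnf, Cd44, Cd52, F10, Itgax, Sorl1, Krt8 and Krt18. Since the rule read the same cells, these folds describe the cells and carry no test. Levels are in ppm of panel transcripts, given for the Control section, PITX1+ section 1 and PITX1+ section 2 in that order.

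Among the ligands, Il1b, the proinflammatory interleukin 1 beta, was at 42815, 25489 and 29954 ppm, which was 7.94-, 5.42- and 3.50-fold the level in other cells. Il1rn, its secreted antagonist, was at 23334, 32445 and 32675, or 4.29-, 4.16- and 3.05-fold. The agonist and the antagonist were thus both high in this class of cells, and how often single cells held both was not counted. Ccl3, a ligand of Ccr1 that attracts monocytes and neutrophils, was at 19172, 12592 and 5953, and Cxcl3, a ligand of Cxcr2 itself, at 17519, 6557 and 6723. Macrophage-rule cells held 190, 258 and 376 ppm of Cxcl3, so the fold against them was 92.3, 25.4 and 17.9. Tnf, the cytokine tumour necrosis factor, was at 5470, 2768 and 1607 ppm.

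Among the receptors, Ccr1 was at 18591, 14137 and 13566 ppm, 6.50-, 5.19- and 3.21-fold the other cells. Trem1 was at 9323, 6648 and 5618 ppm, or 7.75-, 6.34- and 4.07-fold. The receptors of monocytes did not share this: Ccr2, which binds Ccl7 and Ccl12, was at 1636, 808 and 824 ppm, 1334, 1316 and 1061 in the other cells, and 2970, 3977 and 2257 in macrophage-rule cells. Csf1r, the receptor for macrophage colony-stimulating factor, was at 4961, 6931 and 8529 ppm against 17104, 19669 and 17965 in macrophage-rule cells. It was present in neutrophil-rule cells at 1.06-fold the other cells in the Control section.

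Of the 7 granule and lysosome genes, Hdc alone passed the fold limit, beside 6.15% over all genes. Hdc, histidine decarboxylase, which makes histamine, was at 19336, 10881 and 9362 ppm, 8.36-, 6.29- and 3.62-fold the other cells. Slpi, an inhibitor that shields tissue from neutrophil elastase, was at 24152, 21821 and 17711 ppm, which fell just short of the fold limit in PITX1+ section 2. Lysozyme, Lyz2, and progranulin, Grn, which macrophages also make, stayed close to the other cells, at 17355, 24373 and 19108 for Lyz2 and 12794, 12999 and 12760 for Grn. F10, coagulation factor X, was at 4779, 9145 and 9954 ppm, or 6.77-, 6.50- and 3.11-fold. Sorl1, a sorting receptor, was at 5706, 5463 and 5023 ppm, or 7.92-, 6.38- and 3.49-fold. Of these 20 genes, all but Itgax were at least 2.32-fold above macrophage-rule cells in each section. Itgax, an integrin of dendritic cells, was at least 1.76-fold above them. The macrophage rule holds Cxcr2, Mmp9 and Itgam below 3 transcripts in sum, so their folds are set by definition. This limit also leaves out cells with more of these transcripts, and its part in the other folds, that of Cxcl3 included, was not tested.

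**Figure D1:**
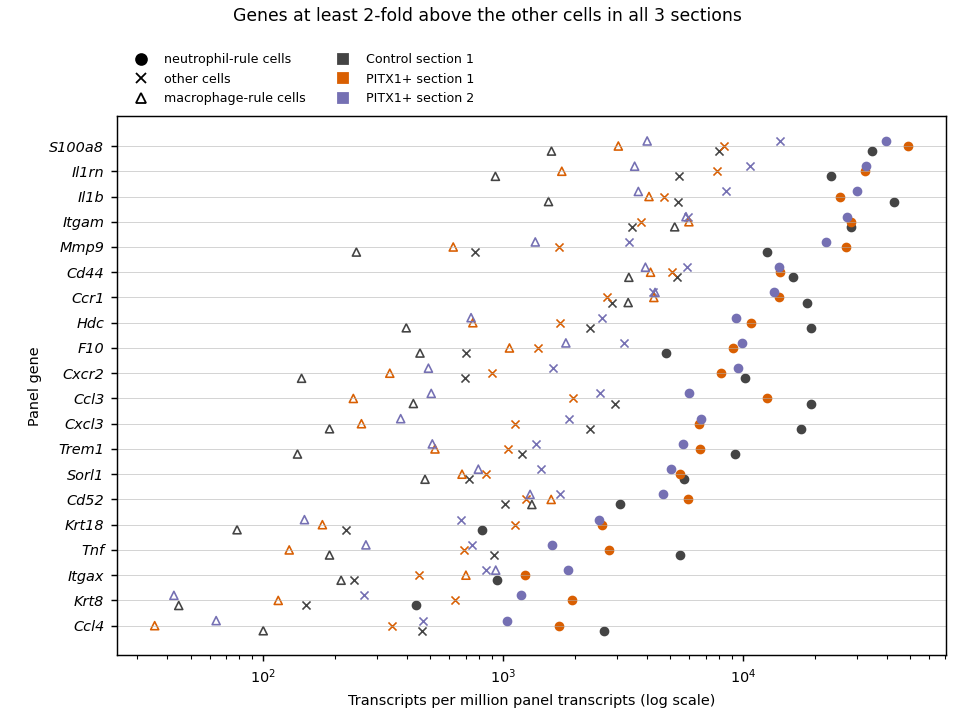
Level (transcripts per 1000000 panel transcripts, log axis) of the 20 genes at least 2-fold higher than in other cells in 3 of 3 wound sections, in neutrophil-rule cells (filled circles), other cells (crosses) and macrophage-rule cells (open triangles), with 1 colour per section. Filled circles lie to the right of the crosses of the same colour for each gene, as for Il1b at 7.94-, 5.42- and 3.50-fold.

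Neutrophil-rule cells were a larger share of both PITX1+ sections than of the Control section. They made up 3.57% (95% interval 3.31 to 3.85) of 18276 cells in the Control section, 8.72% (8.44 to 9.01) of 38198 in PITX1+ section 1 and 15.2% (14.9 to 15.4) of 66959 in PITX1+ section 2. The ratio to Control was 2.44 (2.25 to 2.65) and 4.24 (3.93 to 4.58). Per area of tissue there were 160, 552 and 1356 neutrophil-rule cells per square millimetre. Macrophage-rule cells did not share this order, at 9.13%, 8.70% and 5.81%, and lymphocyte-rule cells were at 1.11%, 1.29% and 1.01%. The macrophage rule leaves out cells with 3 or more transcripts of the neutrophil markers, so its order may be partly fixed by the rules. Over the 3 sections, 6276 cells held at least 3 such transcripts and also C1qa or Mrc1, and counted in neither class. The difference in neutrophil-rule cells between both PITX1+ sections was itself wide, and depended on where in the section cells were counted.

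**Figure D2:**
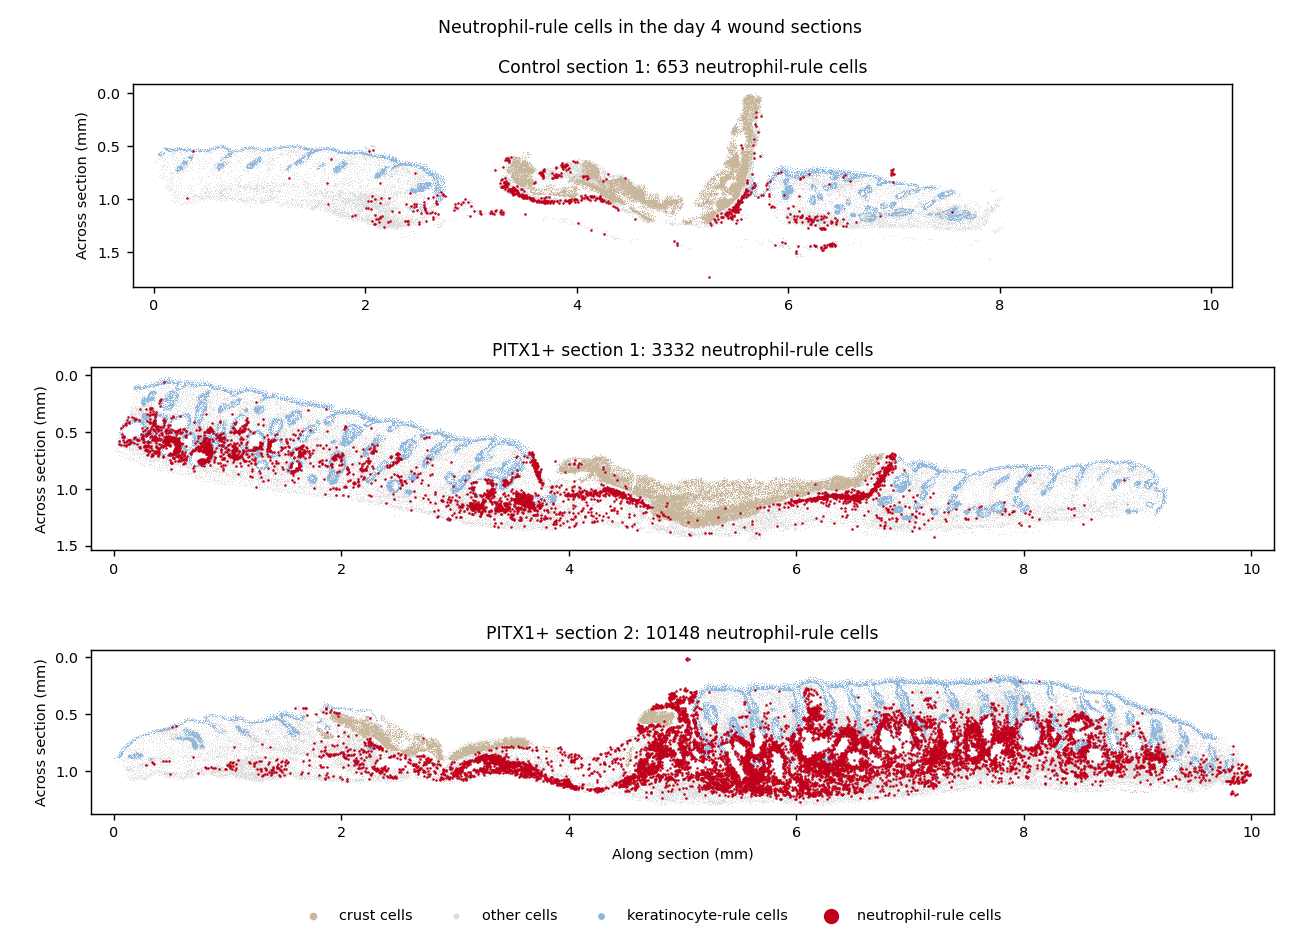
Position along and across each of the 3 wound sections (both axes in mm) of neutrophil-rule cells (red), keratinocyte-rule cells (blue), crust cells (tan) and the other cells with at least 10 transcripts (grey). In the Control section most neutrophil-rule cells followed the edge of the crust, while in each PITX1+ section many more lay in the tissue on 1 side of it.

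A crust of outlined cells with almost no transcripts could be found without the marker genes of the rule, though with its limit of 10 transcripts. A crust cell had at least 20 cells within 50 micrometres of which at least 80% held fewer than 10 transcripts, and there were 12392, 12291 and 5654 such cells. In the Control section 62.0% of neutrophil-rule cells (405 of 653) lay within 200 micrometres of the crust, in PITX1+ section 1 30.0% (998 of 3332) and in PITX1+ section 2 19.9% (2021 of 10148). Of the other cells, 22.8%, 16.4% and 18.7% lay that near. The median distance to the crust was 87.2, 603 and 720 micrometres, and 1122, 844 and 615 in the other cells. In PITX1+ section 2 neutrophil-rule cells were thus placed much like the other cells, with a larger median distance. Of macrophage-rule cells, which hold fewer than 3 neutrophil-marker transcripts by their rule, 0.18%, 3.37% and 7.49% lay within 200 micrometres, below the other cells in 3 of 3 sections.

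The share of neutrophil-rule cells was highest at 50 to 100 micrometres from the crust in the Control section, at 15.0% (13.3 to 16.9), and in PITX1+ section 1, at 21.2% (19.5 to 22.9). In PITX1+ section 2 it was highest at 100 to 200 micrometres, at 18.4% (17.5 to 19.4). Away from the crust PITX1+ section 1 was close to the Control section in 1 bin and apart from it in others. At 200 to 500 micrometres the share was 4.74%, 7.79% and 13.0% in the Control section, PITX1+ section 1 and PITX1+ section 2, and at 500 to 1000 micrometres it was 4.41% (3.73 to 5.18), 4.58% (4.10 to 5.09) and 14.6%. At 1000 to 2000 micrometres the share was 0.84% (0.63 to 1.08), 4.19% (3.68 to 4.75) and 16.8% (16.3 to 17.3). At 2000 to 4000 micrometres it was 0.11% (0.023 to 0.32) in the Control section and 10.4% (9.82 to 10.9) in PITX1+ section 1, above its share at 500 to 2000 micrometres. Within 200 micrometres as a whole the share was 9.17%, 14.8% and 16.0%, a ratio to Control of 1.62 and 1.74, and beyond it 1.79%, 7.42% and 15.0%, a ratio of 4.15 and 8.36. The pooled ratio was therefore larger beyond 200 micrometres, although at 500 to 1000 micrometres PITX1+ section 1 was close to the Control section.

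**Figure D3:**
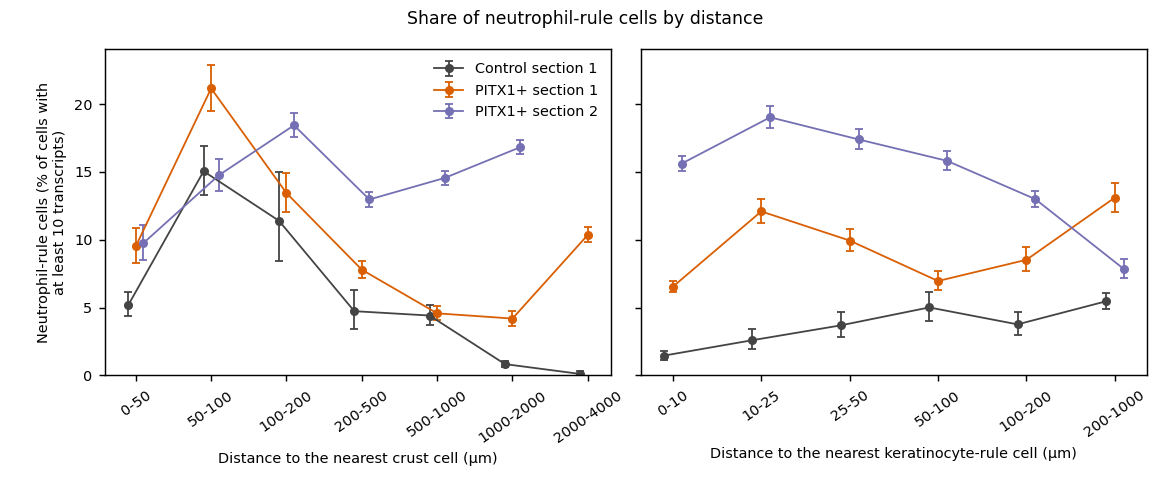
Share of cells that were neutrophil-rule cells (percent, with exact binomial 95% intervals) by distance to the nearest crust cell and to the nearest keratinocyte-rule cell (micrometres), 1 line per section. Within 200 micrometres of the crust the bins ran from 5.18% to 21.2%, and at 1000 to 2000 micrometres from 0.84% to 16.8%.

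That surplus lay on 1 side of each PITX1+ wound. Beyond 200 micrometres from the crust, the share on the left and on the right of it, as drawn in the map of the sections, was 1.58% (1.30 to 1.90) and 2.01% (1.69 to 2.37) in the Control section. It was 9.35% (8.98 to 9.73) and 1.44% (1.19 to 1.74) in PITX1+ section 1, and 3.03% (2.62 to 3.49) and 16.5% (16.2 to 16.8) in PITX1+ section 2. The sparse side of PITX1+ section 1 was thus no higher than either Control side, and the sparse side of PITX1+ section 2 was above both Control sides. The sides held 6981 and 6879 cells in the Control section, 23771 and 7695 in PITX1+ section 1, and 6165 and 48140 in PITX1+ section 2. The sparse side of each PITX1+ section was thus also the smaller one, while the Control sides were of like size. The split by side was made after the map had been seen.

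Pitx1 in keratinocyte-rule cells was not higher on the dense side, and the Cxcr2 ligands Cxcl5 and Cxcl1 were, both picked after the split had been made. Pitx1 was at 612 ppm (567 to 660) on the dense left side of PITX1+ section 1 and 684 (601 to 775) on its sparse right side. In PITX1+ section 2 it was at 292 (264 to 322) on the dense right side and 439 (335 to 565) on the sparse left side. Keratinocyte-rule cells held Cxcl5, a Cxcr2 ligand, at 547 ppm on the dense side against 22.4 on the sparse side of PITX1+ section 1, and at 1243 against 0 in PITX1+ section 2. Cxcl1, a second Cxcr2 ligand, was at 2904 against 445 and at 1993 against 124. On the Control sides Cxcl5 was at 11.7 and 48.3 and Cxcl1 at 133 and 163. Neutrophil-rule cells themselves held Cxcl5 at 3946 and 3692 ppm over PITX1+ sections 1 and 2. The part of neighbouring cells in these keratinocyte levels was not tested, nor was any tie of Pitx1 or the ligands to the dense side. Neutrophil-rule cells of the sparse sides were few (111 and 187), and held Il1rn at 3093 and 6439 ppm against 32517 and 31244 on the dense sides and 9584 and 18435 on the Control sides.

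Away from the crust, neutrophil-rule cells lay among keratinocytes, fibroblasts and further neutrophil-rule cells. Over all places, crust included, within 50 micrometres of a keratinocyte-rule cell lay 29.2% (25.8 to 32.9), 64.2% (62.6 to 65.9) and 61.5% (60.6 to 62.5) of neutrophil-rule cells, while of the other cells 50.4%, 66.7% and 53.9% lay that near. In both, cells that met the keratinocyte rule themselves counted as near, among them 72, 586 and 1783 neutrophil-rule cells. Beyond the crust, keratinocyte-rule cells were 11.6%, 24.6% and 17.5% of the cells within 25 micrometres of a neutrophil-rule cell, fibroblast-rule cells 30.3%, 15.4% and 19.8%, and further neutrophil-rule cells 12.5%, 31.7% and 33.9%. Near the crust, neutrophil-rule cells were 15.9%, 33.9% and 29.2% of these neighbours, and macrophage-rule cells 0.02%, 0.25% and 0.64%. Places where at least 25% of the surrounding cells within 50 micrometres met the rule held 54, 1582 and 6211 of them, which was 8.27%, 47.5% and 61.2%.

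The rule could not count the crust itself. Its cells with fewer than 10 transcripts numbered 11669, 11700 and 5338, with a median of 1 transcript each. Their summed transcripts held Il1b at 71950, 88137 and 99038 ppm, S100a8 at 36455, 74628 and 58141, and Hdc at 30115, 34054 and 27744. Krt17 was at 3362, 2861 and 3427 and C1qa at 528, 985 and 2211. Il1b, S100a8 and Hdc were above their levels in neutrophil-rule cells in each section. Cells with fewer than 10 transcripts outside the crust numbered 4690, 6106 and 11279 and held Il1b at 74901, 50742 and 55948. The shares above leave out both kinds, of which the first was fewest and the second most numerous in PITX1+ section 2.

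Within the sections, neutrophil-rule cells near the crust differed from those farther away, and this comparison could be tested since position was not part of the rule. It was chosen after the map had been seen. Of 311 genes tested, 33 (10.6%) rose and 37 (11.9%) fell within 200 micrometres of the crust, by edgeR's quasi-likelihood test with the section as a block and an adjusted p below 0.05. The log2 changes come with TMM scaling, which puts them above the plain ratio of the levels printed beside them. The 5 largest rises were those of Ccl4, Lhx2, Ccl3, Tnf and Thbs1, with Lhx2, a transcription factor of hair follicles, at only 8 transcripts near the crust in the Control section, and the largest falls were those of Des and Postn. The cells near the crust were shallower, with 71.2, 56.3 and 68.2 transcripts on average against 106, 92.7 and 96.7 in those farther away.

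Ccl4, a chemokine that attracts monocytes and lymphocytes, was at 4195, 4880 and 3020 ppm near the crust and at 917, 888 and 690 farther away. Levels near the crust were above all those farther away, a log2 change of 2.62 (SE 0.36, adjusted p = 0.00071). Ccl3 was at 31275, 25594 and 15724 near and 5843, 9216 and 4240 far, again with no overlap (2.29, SE 0.31, adjusted p = 0.00071). Tnf was at 8703, 7712 and 3049 near and 1909, 1484 and 1354 far, with no overlap (2.27, SE 0.37, adjusted p = 0.0023). Of the 15 chemokine ligands, Ccl3, Ccl4 and Cxcl3 rose and Cxcl5 and Cxcl12 fell, beside 10.6% and 11.9% over all genes tested, with a list median of 0.62 against -0.15.

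Spp1, or osteopontin, an adhesive cytokine of wound tissue, was at 35054, 27072 and 31978 ppm near the crust and 9012, 8079 and 12672 farther away (log2 change 2.05, SE 0.28, adjusted p = 0.00071). Thbs1, thrombospondin-1, a matrix protein that platelets and myeloid cells release in wounds, was at 51836, 18167 and 8356 near and 20202, 3778 and 3145 far. Each section rose on its own for Thbs1, although the Control section farther away lay above both PITX1+ sections near the crust (2.05, SE 0.29, adjusted p = 0.00071). Among 14 early response and stress genes, Fos, Jun, Junb, Atf3 and Thbs1 rose and none fell, beside 10.6% and 11.9% over all genes tested, and the list median was 0.35. Jun was at 15360, 18149 and 14947 near and 7790, 7024 and 6618 far (1.54, SE 0.27, adjusted p = 0.0031).

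Of the 16 neutrophil genes, Trem1, S100a8, Il1b, Hdc, Slpi and Ccr1, which the rule did not use, rose near the crust and none fell, beside 10.6% and 11.9% over all genes tested. The list median was 0.73 with the 3 rule genes included. Of the 11 macrophage genes tested, Mmp12, Arg1 and Cd68 also rose and none fell, with a list median of 0.95. Il1b was at 59117, 43404 and 37619 near and 24861, 20837 and 28609 far (1.27, SE 0.27, adjusted p = 0.0087). Hdc was at 26975, 21426 and 14846 near and 10922, 8143 and 8400 far (1.54, SE 0.28, adjusted p = 0.0033). S100a8 was at 43029, 73005 and 56704 near and 25357, 42640 and 36737 far, so that the sections overlapped although each rose (1.09, SE 0.23, adjusted p = 0.0087). The rule genes Cxcr2 and Mmp9 did not pass the test, at a log2 change of 0.56 (adjusted p = 0.15) and 0.55 (adjusted p = 0.12), and the call of Itgam, which the rule also used, is not counted.

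Of the 8 fibroblast genes 6 fell near the crust, as did Krt5, Krt17 and Dsc3 of the 9 keratinocyte genes tested, beside 11.9% over all genes. Col1a1, the main fibrillar collagen, was at 3121, 10473 and 14367 ppm near and 22378, 22738 and 25458 far (-1.19, SE 0.34, adjusted p = 0.032). Since fibroblasts were 0.56%, 1.43% and 3.88% of the neighbours near the crust and 30.3%, 15.4% and 19.8% farther away, the test was repeated on neutrophil-rule cells with no transcript of the 7 keratins of the keratinocyte rule and none of Col1a1, called cells with no rule keratin and no Col1a1 from here on. They could still hold transcripts of other keratins. In these 17 genes rose and 13 fell of 194 tested, and Ccl3, Ccl4, Cxcl3, Tnf, Spp1, Thbs1, Fos, Jun, Junb, Hdc, Trem1, Arg1 and Slpi were among those that rose. Il1b (log2 change 1.12, adjusted p = 0.063), S100a8 (1.00, adjusted p = 0.10), Ccr1 (0.80, adjusted p = 0.13), Itgam (0.81, adjusted p = 0.16) and Atf3 (0.73, adjusted p = 0.21) no longer passed. Of the genes that had fallen, Postn (-1.59, adjusted p = 0.067) and Cxcl5 (-1.39, adjusted p = 0.067) no longer passed either, while Des and Cxcl12 still fell. With library size in place of TMM scaling the median over all genes moved from -0.15 to -0.51 and the calls from 33 higher and 37 lower to 19 and 59. Without PITX1+ section 2 only Cxcl3, Hdc, Il1b, S100a8 and Spp1 still rose, beside the rule gene Itgam, and no gene fell. Without PITX1+ section 1 24 rose and 1 fell, and with a limit of 500 micrometres no gene passed.

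**Figure D4:**
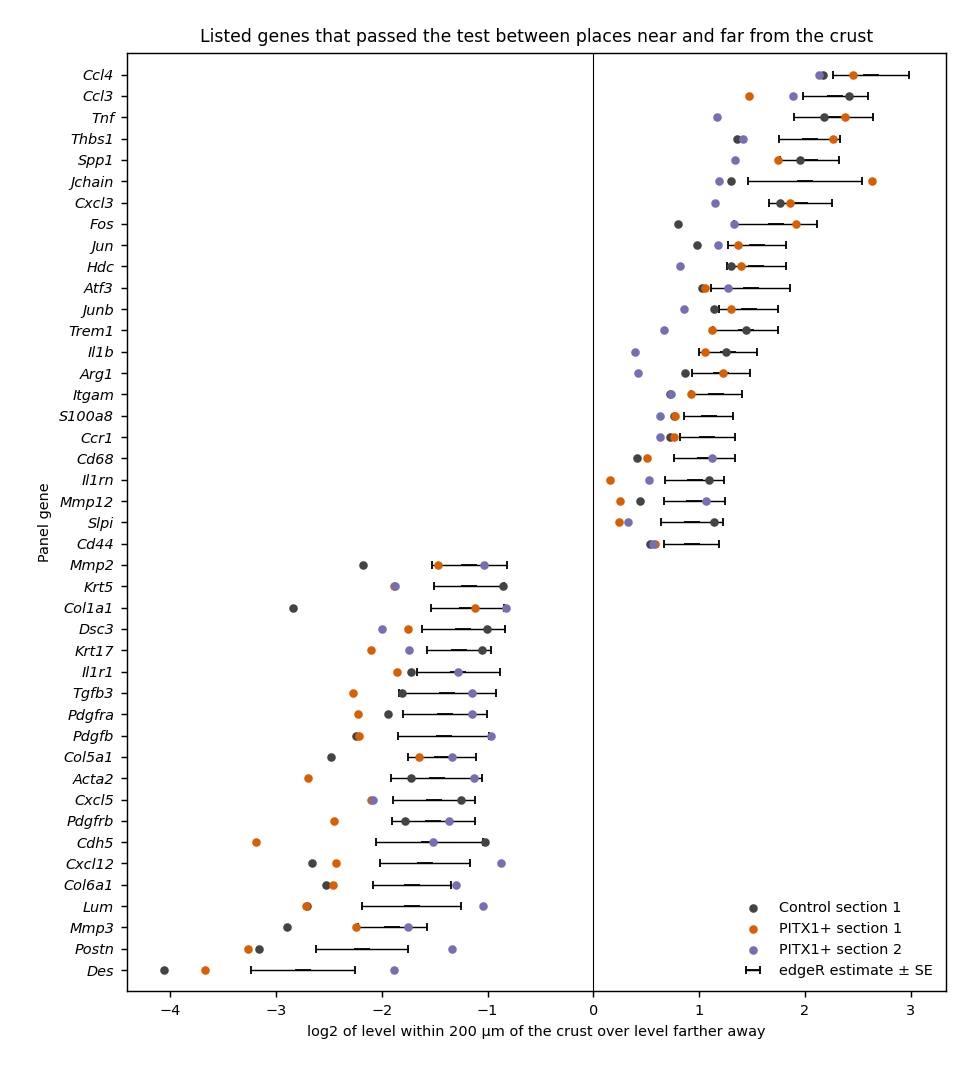
log2 of the level in neutrophil-rule cells within 200 micrometres of the crust over the level farther away, for the genes of the fixed lists that passed the test, with 1 point per section as a plain ratio and the edgeR estimate ± SE after TMM scaling in black. Ccl4, Ccl3, Tnf, Thbs1 and Spp1 lie at the top, above 0 in each section, and Des, Postn, Mmp3 and Lum at the bottom. The chemokines Cxcl5 and Cxcl12 lie below 0 in each section.

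Between the conditions, a minority of the panel passed a 2-fold limit in neutrophil-rule cells. Of 276 genes with an expected Control count of at least 5, 26 (9.42%) were at least 2-fold higher in both PITX1+ sections than in the Control section and 43 (15.6%) at least 2-fold lower. No gene of the 16 neutrophil genes was higher and 2 were lower, Stfa3 and Cstdc5, both protease inhibitors of the stefin family. Both turned round in cells with no keratinocyte-rule cell within 50 micrometres, at a mean log2 fold of 0.55 and 0.28, and in cells with none of the rule's keratins and no Col1a1, at 0.68 and 0.14. The list's median log2 fold was -0.31 and -0.20 in the PITX1+ sections, beside -0.00 and -0.18 over all genes, with the 3 rule genes included. Cxcr2, which the rule used, was at 10250 (9421 to 11131), 8161 (7825 to 8507) and 9518 (9320 to 9719) ppm. S100a8 was at 34619 (33082 to 36210), 48899 (48072 to 49737) and 39716 (39311 to 40125), so both PITX1+ sections lay above the Control section by less than the limit. Because place and section were tied, the limit was also applied near and far from the crust.

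Thbs1 had the widest gap among the genes with more than 1000 transcripts in the Control section. It was at 36782 (35197 to 38420), 6744 (6439 to 7059) and 3923 (3796 to 4053) ppm, 5.45- and 9.38-fold lower in the PITX1+ sections. It was also lower by at least 2-fold in both near the crust, far from it, in cells with Cxcr2 and in cells with no rule keratin and no Col1a1, where it was at 66106, 12020 and 5243. In the crust's cells with fewer than 10 transcripts it was at 110134, 41559 and 18791. Fos, an early response factor, was at 1654 (1331 to 2030), 400 (329 to 483) and 340 (303 to 380), and was lower in all the same subsets, by 4.13- and 4.86-fold overall. Klf4 and Gpr171, a transcription factor of keratinocytes and myeloid cells and a receptor of lymphocytes and progenitors, were lower overall and in the subsets by place and without keratin, with Gpr171 counted only 38 times in the Control section.

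Cxcl3 was lower in both PITX1+ sections in both places, without both passing the limit in either, and Il1b changed its order with place. Cxcl3 was at 17519 (16430 to 18660), 6557 (6256 to 6868) and 6723 (6557 to 6893) ppm over all places, 2.67- and 2.61-fold lower in the PITX1+ sections. Near the crust it was at 26386, 15424 and 12595 and far from it at 7752, 4254 and 5694, and in neither place were both sections past 2-fold. In cells with no rule keratin and no Col1a1 it was at 29924, 13161 and 11252, again lower by 2-fold in both. Il1b was at 59117, 43404 and 37619 near and 24861, 20837 and 28609 far, so that PITX1+ section 2 was below the Control section near the crust and above it farther away. Farther away the Control sides differed, at 13488 on the left and 33452 on the right, and the dense side of PITX1+ section 2 lay between them at 29020, with its sparse side below both at 11981. Il1rn was at 31240, 35389 and 44247 near the crust and at 14626, 31681 and 30646 far, above the Control section in both places. Farther away this held on the dense sides, while on the sparse sides it lay below both Control sides.

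**Figure D5:**
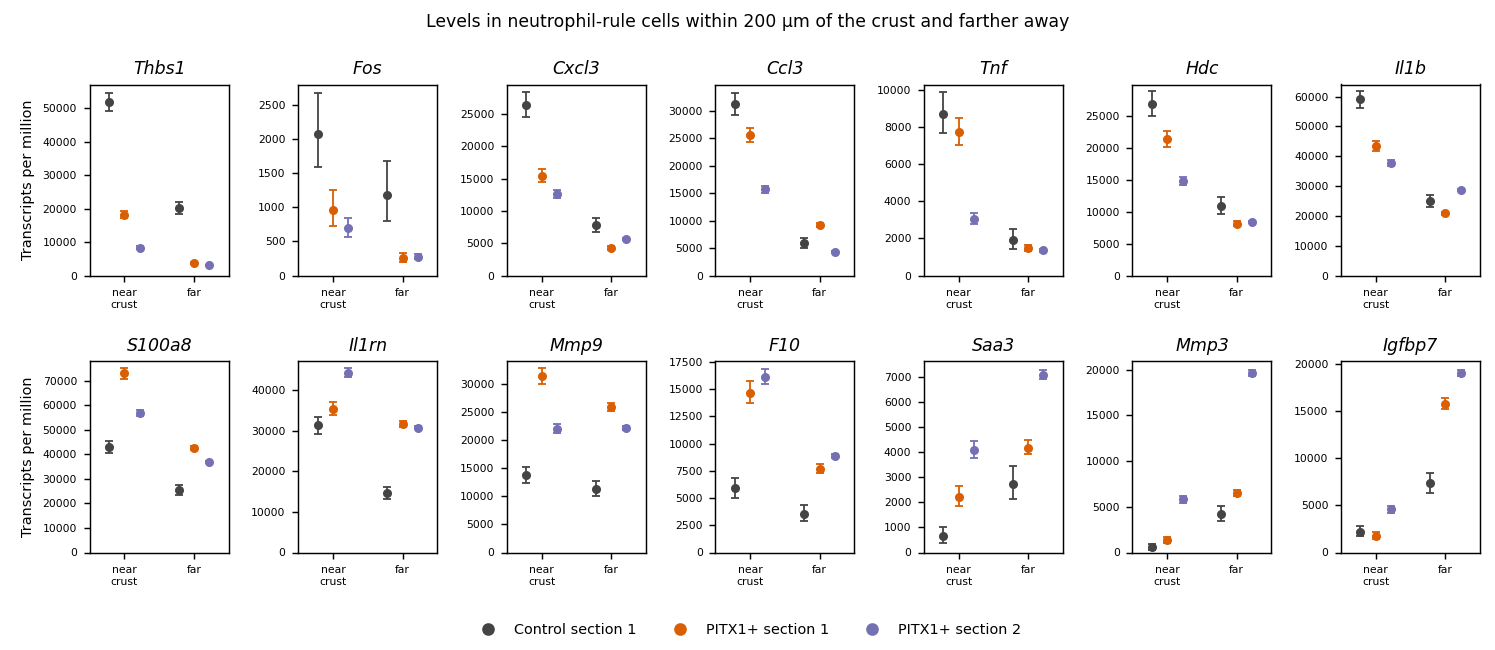
Level (transcripts per 1000000 panel transcripts, each panel with its own axis from 0) of 14 genes in neutrophil-rule cells within 200 micrometres of the crust and farther away, with 1 point per section and 95% Poisson intervals. Thbs1 was highest in the Control section in both places, whereas for Il1b the Control section lay highest near the crust and between both PITX1+ sections farther away.

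Among the genes higher in the PITX1+ sections were Mmp3, Igfbp7, Cxcl5, Krt8, Krt18 and Tgfbr1. Of these, Mmp3 passed the limit near the crust and the others farther away, and Mmp3, Igfbp7, Cxcl5 and Tgfbr1 also in cells with no rule keratin and no Col1a1. Mmp3, a stromelysin of fibroblasts and keratinocytes, was at 2308 (1924 to 2746), 5411 (5138 to 5695) and 17541 (17272 to 17813) ppm, and was below the other cells in each section (4849, 7553 and 20477). Near the crust it was at 555, 1354 and 5800. Igfbp7, an insulin-like growth factor binding protein of vessels and fibroblasts, was at 4652, 12893 and 16881 overall and at 2219, 1745 and 4559 near the crust. Cxcl5 was at 1218 (944 to 1546), 3946 (3714 to 4190) and 3692 (3569 to 3818), and near the crust at 728, 1086 and 980, where it passed no limit. Krt8 and Krt18, keratins of simple epithelia, were at 436, 1949 and 1189 and at 818, 2584 and 2513, and among cells more than 50 micrometres from any keratinocyte-rule cell both turned round, with a mean log2 fold of -1.69 and -0.49. Tgfbr1, a receptor of transforming growth factor beta, was at 1708, 3528 and 4269, and in cells with no rule keratin and no Col1a1 at 1735, 3931 and 5287.

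Among the lower genes were Krt1, Hrnr and Flg, although of the 8 keratinocyte genes of the fixed list with enough transcripts only Krt1 was lower. Krt1, a keratin of suprabasal epidermis, was at 2799, 84.4 and 177 ppm in neutrophil-rule cells and 14376, 8579 and 7818 in the other cells. Hrnr and Flg, which form the cornified layer, were at 1490, 121 and 169 and at 1199, 173 and 266. Hrnr passed the limit in both places, and Krt1 and Flg farther from the crust. Of the 10 cell cycle genes 6 were lower by 2-fold, beside 15.6% over all genes, with Top2a at 1218, 521 and 483 ppm against 2896, 2235 and 1396 in the other cells. None of the 6 passed the limit near the crust, where Top2a was at 416, 249 and 428, or in cells with no rule keratin and no Col1a1, where each had 3 to 8 transcripts in the Control section. With no keratinocyte-rule cell within 50 micrometres, Cenpf and Prc1 were at a mean log2 fold of 0.033 and 0.0014. In cells with no rule keratin and no Col1a1, 32 genes (20.9%) were higher and 7 (4.58%) lower of 153, against 15 (6.22%) and 36 (14.9%) of 241 near the crust and 25 (10.6%) and 38 (16.1%) of 236 farther away.

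Next to epithelium, neutrophil-rule cells held more of the keratinocyte genes and less Thbs1, Spp1 and Ccl4. Of 315 genes tested, 67 (21.3%) rose and 20 (6.35%) fell within 50 micrometres of a keratinocyte-rule cell. Of the 10 keratinocyte genes 8 rose, with Krt17 at 47602, 42753 and 40990 ppm near and 948, 450 and 907 far. Of the near cells, 72 of 191, 586 of 2140 and 1783 of 6246 met the keratinocyte rule themselves and so counted as near. None of the cells farther away could meet it, so the keratin rise was partly fixed by the choice of cells. Cells near epithelium held 128, 93.0 and 102 transcripts on average and those farther away 66.2, 61.6 and 73.2. In cells with no rule keratin and no Col1a1, 11 genes rose, among them Aldh1a3, Sprr2d and the keratins Krt18, Krt23 and Krt75, which the choice of cells had not used, and 8 fell.

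Thbs1 was at 16699, 4035 and 2844 ppm near epithelium and 52819, 14093 and 6331 farther away (log2 change -1.45, SE 0.24, adjusted p = 0.0084). Spp1 was at 7163, 9305 and 11929 near and 35038, 19285 and 23645 far (-1.34, SE 0.33, adjusted p = 0.037). Ccl4 was at 982, 1251 and 787 near and 3955, 2958 and 1597 far (-1.30, SE 0.30, adjusted p = 0.028). For Spp1 and Ccl4 the levels near epithelium were below all those farther away. All of Thbs1, Spp1 and Ccl4 also fell in cells with no rule keratin and no Col1a1, as did Cxcl3 and Tnf, which had missed the threshold over all cells. Each of these genes had risen near the crust, and the comparisons overlapped. Of the cells farther from epithelium, 139 of 462, 437 of 1192 and 2591 of 3902 also lay away from the crust. Of those near epithelium, 109 of 191, 1897 of 2140 and 5536 of 6246 did. The part of the crust in these falls was not tested. Saa3, an acute-phase protein, fell from 2223, 6338 and 12512 far to 941, 2849 and 4028 near (-1.26, SE 0.23, adjusted p = 0.013). Of the 11 macrophage genes tested, C3ar1, Cd209f, Ccl8 and Cd68 fell, beside 6.35% over all genes. In cells with no rule keratin and no Col1a1, Saa3 (-0.12, adjusted p = 0.94), C3ar1 (adjusted p = 0.46), Ccl8 (adjusted p = 0.84) and Cd68 (0.0086, adjusted p = 1.00) did not pass. Il1b and S100a8 did not pass the test, at -0.45 (adjusted p = 0.35) and -0.53 (adjusted p = 0.19). Without PITX1+ section 2 the calls went from 67 and 20 to 4 and 0, without PITX1+ section 1 to 66 and 11.

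Dense places were compared with the rest by the same test. Density was counted from neighbours that met the rule, so this split, unlike distance to the crust, drew on the rule's own genes. A part of the changes may thus be fixed by the choice of places, and the part of neighbouring cells in them was not tested. Of 312 genes, 7 (2.24%) rose in places where at least 25% of the neighbours met the rule, and 19 (6.09%) fell. With a limit of 10% these counts were 34 and 36, and with 50% 8 and 35. The largest fall was that of Des, at 363, 136 and 234 ppm in dense places and 2383, 2426 and 3878 elsewhere (-3.56, SE 0.54, adjusted p = 6.8e-06). Il1rn was at 35928, 44832 and 40376 ppm in dense places and 21932, 21899 and 19294 elsewhere, with no overlap (1.29, SE 0.32, adjusted p = 0.0073). Il1b was at 66776, 29201 and 34856 in dense places and 40149, 22327 and 21434 elsewhere (0.95, SE 0.30, adjusted p = 0.034). Mmp12, a macrophage elastase, was at 20686, 11431 and 13372 against 5857, 3541 and 9559 (1.68, SE 0.42, adjusted p = 0.0077), and turned to -0.31 where dense meant at least 50%. Cxcl3, F10, Krt8 and Krt18 were the other genes that rose. In cells with no rule keratin and no Col1a1 3 genes rose and 30 fell, Des among the latter. None of the 7 genes that had risen passed there, with adjusted p from 0.094 for Krt18 to 0.72 for Il1b. Il1b also missed the threshold with library size (adjusted p = 0.054), by DESeq2 (adjusted p = 0.11) and over nuclei (adjusted p = 0.47). Over nuclei Il1rn (adjusted p = 0.17), Cxcl3 (adjusted p = 0.13) and F10 (adjusted p = 0.089) missed it too, and with library size Krt18 did (adjusted p = 0.082). The dense places of the Control section held 54 cells, and without PITX1+ section 1 no gene passed.

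Cell by cell, most neutrophil-rule cells carried S100a8 and fewer carried the chemokines. Each cell was thinned to 50 transcripts, which left out 276 of 653, 1283 of 3332 and 2999 of 10148 shallower cells. S100a8 was then found in 70.8%, 70.3% and 68.8% of cells, Il1b in 62.9%, 53.5% and 61.3% and Il1rn in 53.6%, 57.4% and 64.9%. Of macrophage-rule cells thinned alike, 5.1%, 11.1% and 16.2% held S100a8, of which macrophages make little, and 6.5%, 13.3% and 14.6% held Il1b, which macrophages can make. Cxcl3 was found in 46.4%, 19.6% and 20.8%, and Thbs1 in 58.4%, 18.9% and 13.3%, against 9.8%, 19.7% and 17.5% of macrophage-rule cells for Thbs1. In the Control section the share with Thbs1 was above that of macrophage-rule cells, and in both PITX1+ sections it was not. Without thinning, S100a8 was found in 74.7%, 80.1% and 78.0% of cells, Cxcl3 in 52.4%, 25.2% and 26.8% and Thbs1 in 66.9%, 23.3% and 18.0%.

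Cells rich in Ccl3 and Ccl4 overlapped the neutrophil-rule cells in part. Cells with at least 3 transcripts of both genes together numbered 767, 1339 and 2244, of which 20.9%, 38.8% and 34.5% met the neutrophil rule. They made up 24.5%, 15.6% and 7.63% of neutrophil-rule cells. Those that did not meet the rule held S100a8 at 41414, 52395 and 47543 ppm, Trem1 at 12528, 8727 and 7588 and Thbs1 at 59705, 15810 and 11060. Each of these levels was above that in neutrophil-rule cells of the same section, while Cxcr2, which missing the rule keeps low, was at 4052, 2182 and 3858.

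On the slides without wounds, of which both skin slides mix Control and PITX1+ sections, the rule found few cells. It took 247 of 78962 cells (0.313%, 0.275 to 0.354) in unwounded male skin, 263 of 161614 (0.163%, 0.144 to 0.184) in unwounded female skin and 77 of 62782 (0.123%) in buccal mucosa. No section of those slides reached the share of the Control wound section. In male skin 44.5% of these cells had Cxcr2, within the range of the wound sections. S100a8 was at 28729 ppm and Il1b at 9379, both below their levels in each wound section. In female skin 8.37% had Cxcr2, S100a8 was at 1307 and Krt17 at 95879 ppm. The cells the rule took in female skin thus carried less S100a8 and more keratin than those of the wounds.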

How the data were processed

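Xenium In Situ assays with a custom panel of 328 genes were run on 4 slides of formalin-fixed mouse tissue, and only the day 4 wound slide carried the sections compared here. The deposited files hold each decoded transcript with its position, its quality score and the cell the authors' software gave it to, and the deposited counts are whole transcripts per cell. The deposited centroids and areas are in micrometres. Decoding and outlining settings and their software versions are not given in the sources used here. Counting only gene transcripts whose deposited quality score reached 20 left 10483436 on the wound slide, of which 99.1% lay in cells, and summed per cell they equalled the deposited counts in 100% of cells.

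Sections were chained from cells within 200 micrometres, with at least 2000 cells each, and 26 cells fell outside them. Neutrophil-rule cells were summed per section and place, and levels were scaled to 1000000 panel transcripts. Conditions were compared by a fold of 2 in both PITX1+ sections, with exact Poisson and exact binomial (Clopper-Pearson) 95% intervals. Places were compared by the quasi-likelihood test of edgeR (version 4.0.16, R version 4.3.3), with genes filtered by filterByExpr, TMM scaling, the section as a block, Benjamini-Hochberg adjustment over all genes tested and a threshold of 0.05, with DESeq2 1.42.0 as an alternative; the p-values measure the spread over these 3 sections only. Tests were run on simulated counts drawn from 1 profile common to all sections, so real differences between sections were not covered. With 60 genes changed, 2-fold changes were recovered at 85.7% for dense places, 67.9% for epithelium and 74.1% for the crust. With 200 genes changed these were 85.7%, 92.9% and 92.5%. Doublets were not called. Results for 1 further gene of the panel are not reported here. The cells and gene lists were chosen with earlier results of these data known. Named genes are those of the fixed lists, the 20 with most transcripts in the cells, and the 10 largest changes each way; Pitx1, Cd52, Sorl1, F10, App and the crust comparison, the places matched between conditions, the cells with no rule keratin and no Col1a1 and the sides of the wound were added after the data had been seen.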

Additional observations from a re-analysis of the deposited data

Results flagged for a closer look

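For a few genes, neutrophil-rule cells of the Control section moved one way between places and those of both PITX1+ sections moved the other way, by at least 0.5 on the log2 scale and with at least 20 transcripts in each of the 6 sums. These differences between sections were not tested, and values are log2 of the plain ratio of levels for the Control section, PITX1+ section 1 and PITX1+ section 2.

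Near keratinocyte-rule cells, Cxcl1, a Cxcr2 ligand, was lower in the Control section at -1.36 and higher in the PITX1+ sections at 0.65 and 0.93. Near the crust it ran the other way, at 1.48 against -0.76 and -1.28. Des, the muscle intermediate filament desmin, was at 1.42 near keratinocyte-rule cells in the Control section and at -4.09 and -3.75 in the PITX1+ sections. The cell cycle genes Top2a (0.80, -1.36 and -1.03), Hist1h1b (1.16, -1.24 and -1.29) and Prc1 (1.52, -1.22 and -0.84) were higher near keratinocyte-rule cells in the Control section only.

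Near the crust, Pf4, a chemokine of platelets and macrophages, was at -1.15 in the Control section and at 1.77 and 1.38 in the PITX1+ sections. Macrophage-rule cells that near to the crust were 0.18%, 3.37% and 7.49% of all macrophage-rule cells of their section, and their part in these values was not tested.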

How the results depend on the processing

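The direction of the abundance difference held under each alternative below, while its size did not; it turned on the sparse side of PITX1+ section 1, at 1.44% against 1.58% and 2.01% on the Control sides. The ratio of 2.44 for PITX1+ section 1 became 1.82 with a marker sum of 2, 3.88 with a sum of 5, 2.03 with Cxcr2 required, 1.98 with no limit on C1qa and Mrc1, 2.20 with transcripts of any quality, 3.30 over nuclei, 3.46 per area, 1.80 as a share of leukocyte-rule cells, and 1.62 within and 4.15 beyond 200 micrometres of the crust. For PITX1+ section 2, the ratio of 4.24 became 3.03, 6.89, 4.19, 3.36, 3.69, 5.51, 8.48, 2.67, 1.74 and 8.36 in the same order. The mean of both was 3.34, and 2.44 to 4.24 with either section left out.

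Of the 26 higher and 43 lower genes between conditions, there were 45 and 13 with a marker sum of 5, 53 and 69 with a fold of 1.5, 7 and 19 with a fold of 3, 17 and 23 with no keratinocyte-rule cell within 50 micrometres, and 8 and 11 far from both crust and keratinocyte-rule cells. Near the crust 15 were higher. Lower genes numbered 27 with Cxcr2 required, 10 over nuclei, 19 with an expected count of 20, and 7 in cells with no rule keratin and no Col1a1. Leaving out a PITX1+ section gave 34 to 36 higher and 50 to 67 lower. The 20 genes above other cells became 4 with a fold of 4 and 93 against macrophage-rule cells.

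For dense places the 7 higher and 19 lower genes became 3 and 5 over nuclei, 0 and 1 with no block, 3 and 30 with no rule keratin and no Col1a1, 34 and 36 at a density of 10%, 3 and 9 with a radius of 100 micrometres, and 0 to 21 and 0 to 31 with a section left out; lower genes were 5 by DESeq2 and 35 at 50%. Near epithelium the 67 and 20 became 11 and 8 with no rule keratin and no Col1a1 and 4 to 88 and 0 to 50 with a section left out, and lower genes were 44 by DESeq2, 37 over nuclei, 3 with no block, 40 at 25 micrometres and 5 at 100. Near the crust the 33 and 37 became 19 and 59 with library size, 11 and 1 with no block, 17 and 13 with no rule keratin and no Col1a1, 0 and 0 at 500 micrometres, and 6 to 24 and 0 to 33 with a section left out, and lower genes were 18 with no filter on genes, 66 over nuclei and 13 with Cxcr2 required. Of the genes near the crust, 133 had an unadjusted p under 0.05.

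Single genes turned round mostly where keratinocytes were left out. With no keratinocyte-rule cell within 50 micrometres the mean log2 fold was -1.34 for Aldh1a3, 0.033 for Cenpf, 0.28 for Cstdc5, -0.49 for Krt18, -0.90 for Krt23, -0.98 for Krt75, -1.69 for Krt8, 0.0014 for Prc1 and 0.55 for Stfa3. Far from both it was -0.37 for Aldh1a3, 0.66 for Cenpf, -1.82 for Krt18, -2.36 for Krt23, -2.27 for Krt8 and 2.69 for Stfa3, and near the crust -0.49 for Aldh1a3, -0.68 for Flt1 and -0.093 for Krt75. With no rule keratin and no Col1a1 it was -0.057 for Aldh1a3, 0.14 for Cstdc5, -0.32 for Krt8, -0.33 for Pdgfrb and 0.68 for Stfa3, and with Cxcr2 required 0.75 for Itga3. With no rule keratin and no Col1a1 the place changes near epithelium were 0.0086 for Cd68, -0.18 for Itga6, -0.55 for Klf4, 0.015 for Pi16 and -0.28 for Sdc1, and near the crust -0.13 for Mmp12. Mmp12 in dense places was at -0.31 at a density of 50%. The causes were not tested.

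The section was the block of each place test. Conditions could not be paired, since the labels number no section. For dense places, a marker sum of 5 and a limit to cells with Cxcr2 were not run, since a section had no such cell. Depth limits the Control section, with 653 cells and 55027 transcripts, and a count of 0 there allows up to 3.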

Other observations

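T and NK cell genes were a small part of the transcripts of neutrophil-rule cells, though not below the other cells. The 10 genes of this list gave 0.37%, 0.33% and 0.33% in the Control section, PITX1+ section 1 and PITX1+ section 2. In the other cells they gave 0.20%, 0.28% and 0.29%. Foxp3, the factor of regulatory T cells, was called higher in the PITX1+ sections but was counted 3 times in the Control section, at 54.5 ppm of panel transcripts against 187 and 183, and in the other cells it was at 112, 214 and 282. Of the 5 T and NK cell genes with enough transcripts to compare the conditions, Foxp3 was higher in both PITX1+ sections, Gpr171 was lower and the others did not pass the limit, beside 9.42% higher and 15.6% lower over all genes.

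Some cytokine and growth factor genes were higher near keratinocyte-rule cells. Cells that met the keratinocyte rule themselves counted as near, and none farther away could meet it. Such a rise was thus partly fixed by the choice of cells. Within 50 micrometres of a keratinocyte-rule cell, 7 of the 16 cytokine and growth factor genes rose in neutrophil-rule cells, beside 21.3% over all genes tested: Il1f6, Il1f8, Il34, Areg, Hbegf, Tgfa and Pdgfb. In cells with none of the 7 keratins of the keratinocyte rule and no Col1a1, Il1f6, Hbegf and Pdgfb were tested and did not pass (adjusted p = 0.84, 0.18 and 0.94).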
